A study of Mus musculus with 12 samples.

Results

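The response of C57BL/6 (labelled BL6) dendritic cell cultures to lipopolysaccharide (LPS, the outer membrane glycolipid of Gram-negative bacteria) was read from 6 of the 12 arrays of the study. The cultures were grown from the bone marrow of mice aged 6 to 8 weeks, for 10 days, with 20 ng/ml of the growth factor GM-CSF. The 3 arrays without LPS were an untreated control, a culture given retinoic acid (RA, labelled 10 nmol/ml), and a culture given the retinoic acid receptor alpha antagonist Ro41-5253 (Ro, labelled 100 nmol/ml). The other 3 arrays were the same 3 conditions with 1 ug/ml LPS, so each LPS array had a partner of the same retinoid condition. All 6 were labelled replicate 2. The 6 BALB/c arrays, labelled replicate 1, repeat these conditions and served here only for the comparison of strains. RA and Ro were present from the start of culture, and the time of contact with LPS is not given in the sources used here. Each condition of each strain is 1 array, and nothing in the labels says whether the cultures came from separate animals. The p-values therefore measure the spread among these arrays, which may be technical. Within BL6 this spread is that of the LPS change among the 3 retinoid conditions. A difference in response between the conditions and noise cannot be told apart in it, and both widen the standard error. In each set of signals below, the 3 values are in the order control, RA, Ro.

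LPS is bound by CD14 and MD-2 and signals through the receptor TLR4. One arm of this pathway, through the adaptor MyD88, activates NF-kappaB and AP-1 and the transcription of inflammatory cytokines. The other, through TRIF, activates IRF3, interferon beta and, through the secreted interferon, the interferon stimulated genes. In dendritic cells the stimulus also starts maturation, with loss of antigen uptake receptors, gain of costimulatory molecules and a switch in chemokine receptors.

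The arrays carry 45101 probe sets with MAS5 signals, a linear intensity. Of the 18193 genes named by at least 1 single-gene probe set, 12429 passed the filter on low values. Median signals of the 6 BL6 arrays lay between 21.4 and 34.8, and the highest median of the 12 arrays was 41.8. A signal at or below 41.8 is called background here, and a change that starts or ends there depends on the 16 added before taking logarithms. H2-Ea, an MHC class II chain that C57BL/6 mice do not make, read 32.1, 14.2 and 239 on the arrays without LPS and 25.3, 27.4 and 43.6 on those with it. On the BALB/c arrays it read 10768, 10215 and 11444 without LPS and 9989, 9724 and 10769 with LPS, so this gene separated the strains as the labels do, and the BL6 Ro array without LPS was the highest of the BL6 values. Of the markers of dendritic cells, Itgax (CD11c) read 4671, 2975 and 4284 without LPS and 2890.0, 1013 and 1571 with LPS, and the MHC class II chain H2-Aa read 12051, 9163 and 11899.6 without LPS and 12092, 8542 and 11974 with LPS. Zbtb46, a factor of conventional dendritic cells, read 134, 51.2 and 391 without LPS and 47.7, 66.7 and 343 with LPS. Flt3, another such marker, was near background, with 68.1, 51.5 and 37.7 without LPS and 5.85, 37.1 and 87.6 with LPS. Macrophage genes were also bright, with 10326, 10872 and 9236 without LPS and 6057, 7296 and 2367 with LPS for Csf1r and 10932, 11548 and 11934 without LPS and 12436, 12469 and 9259 with LPS for Lyz2. Genes used as markers of both cell types were thus read, and bulk samples do not tell whether the same cells carried them.

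LPS changed the level of 3572 of the 12429 genes (28.7%) at an adjusted p under 0.05 in a limma fit with the retinoid condition as a block. Of these, 852 genes (6.85% of those tested) were higher with LPS and 2720 (21.9%) were lower. The counts of list members below are to be read beside these shares. The median gene moved by -0.31 on the log2 scale, since the LPS arrays were dimmer for most genes. With quantile normalization the split was 1303 higher and 1541 lower, and with each array centred on its median it was 1906 higher and 1079 lower. The part of array brightness in the counts was not tested beyond these scalings. All changes below are therefore given relative to the median gene, as log2 of the signal plus 16, with the standard error (SE, 3 pairs of arrays), while the p-values test the change itself. The 3 LPS signals lay above all 3 signals without LPS for 1112 genes (8.95%), and below them for 3528 genes (28.4%). Changes past 4 log2 units were carried by 56 of the higher and 15 of the lower genes. Leaving out the control pair lowered the count of changed genes to 1728 (483 higher and 1245 lower). Leaving out the RA or the Ro pair gave 2432 (598 and 1834) and 2980 (780 and 2200). Without the block the count was 1591. A list count for another scaling or without a pair is to be read beside the counts of all genes in that setting. The shares of 6.85% and 21.9% do not apply to it.

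The 12 genes with the largest rises encode cytokines, chemokines, enzymes and interferon-induced proteins. Ptgs2, the inducible cyclooxygenase that starts prostaglandin synthesis, read 6.41, 9.74 and 11.8 without LPS and 6202, 5612 and 3863 with LPS. It went from background to a high level in every condition, a relative change of 7.99 ± 0.29 (adjusted p = 1.29e-05). Il6, the acute phase cytokine, read 41.7, 79.8 and 169 without LPS and 7299, 8052 and 8483 with LPS, and rose by 6.62 ± 0.30 (adjusted p = 2.53e-05). Il1a and Il1b, the alpha and beta forms of interleukin 1, rose by 6.50 ± 0.40 (adjusted p = 8.08e-05) and 6.35 ± 0.23 (adjusted p = 1.29e-05). Il1b signals were 187, 128 and 181 without LPS and 12325, 12358 and 10499.8 with LPS. Both groups of Il1b arrays were tight. Oasl1, an interferon-induced relative of the oligoadenylate synthetases, read 74.4, 59.1 and 57.7 without LPS and 6419, 7359 and 4397 with LPS. It rose by 6.54 ± 0.25 (adjusted p = 1.29e-05). Slfn4, a Schlafen family gene of myeloid cells, rose by 6.51, and Cmpk2, a mitochondrial nucleotide kinase, by 5.87. Acod1, the enzyme that makes itaconate, read 167, 97.7 and 183 without LPS and 9871, 11348 and 7175 with LPS, and rose by 6.17 ± 0.30 (adjusted p = 3.01e-05). Inhba, the activin A subunit, rose by 5.97. The chemokine genes Cxcl9 and Cxcl3 and the interleukin 12 subunit Il12b rose by 6.20, 6.17 and 5.96. None of these 12 genes had overlapping groups, but they were picked for the size of their change on these same arrays, so this adds no support.

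The 12 genes with the largest falls encode surface receptors, regulators of cell division, an ion exchanger, an immunoglobulin chain and a granule protein. Ccr2, the receptor through which monocytes and immature dendritic cells follow CCL2, read 4721, 1762 and 1341 without LPS and 50, 14.9 and 27.1 with LPS. It fell to near background in each condition, by -5.35 ± 0.31 (adjusted p = 3.95e-05). Clec10a, a lectin that binds galactose-type sugars, read 2859.8, 3579 and 2230.4 without LPS and 35.3, 79.1 and 44.9 with LPS, and changed by -5.10 ± 0.26 (adjusted p = 2.53e-05). Mrc1, the mannose receptor, read 4057, 5231 and 2077 without LPS and 152, 96.7 and 72.4 with LPS, and changed by -4.59 ± 0.28 (adjusted p = 4.74e-05). Cd93, a transmembrane lectin of myeloid and endothelial cells, changed by -4.27. Cd300lb, an activating receptor of the CD300 family, changed by -4.48, and the lectin Clec4b1 by -4.40. Ramp1, a partner of the receptor for the neuropeptide CGRP, read 5199.8, 2100.2 and 1447 without LPS and 197, 71.5 and 44 with LPS, and changed by -4.29. Its second brightest probe set gave -0.98 and did not pass the threshold. Slc9a9, an endosomal sodium-proton exchanger, changed by -4.08. Cdc20 and Ube2c, an activator and a ubiquitin-conjugating enzyme of the anaphase-promoting complex, changed by -4.47 and -4.04. Ighm, the immunoglobulin mu chain, and Ngp, a neutrophil granule protein, changed by -4.96 and -4.16. The groups did not overlap for any of these 12 genes either, which were picked in the same way.

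**Figure D1:**
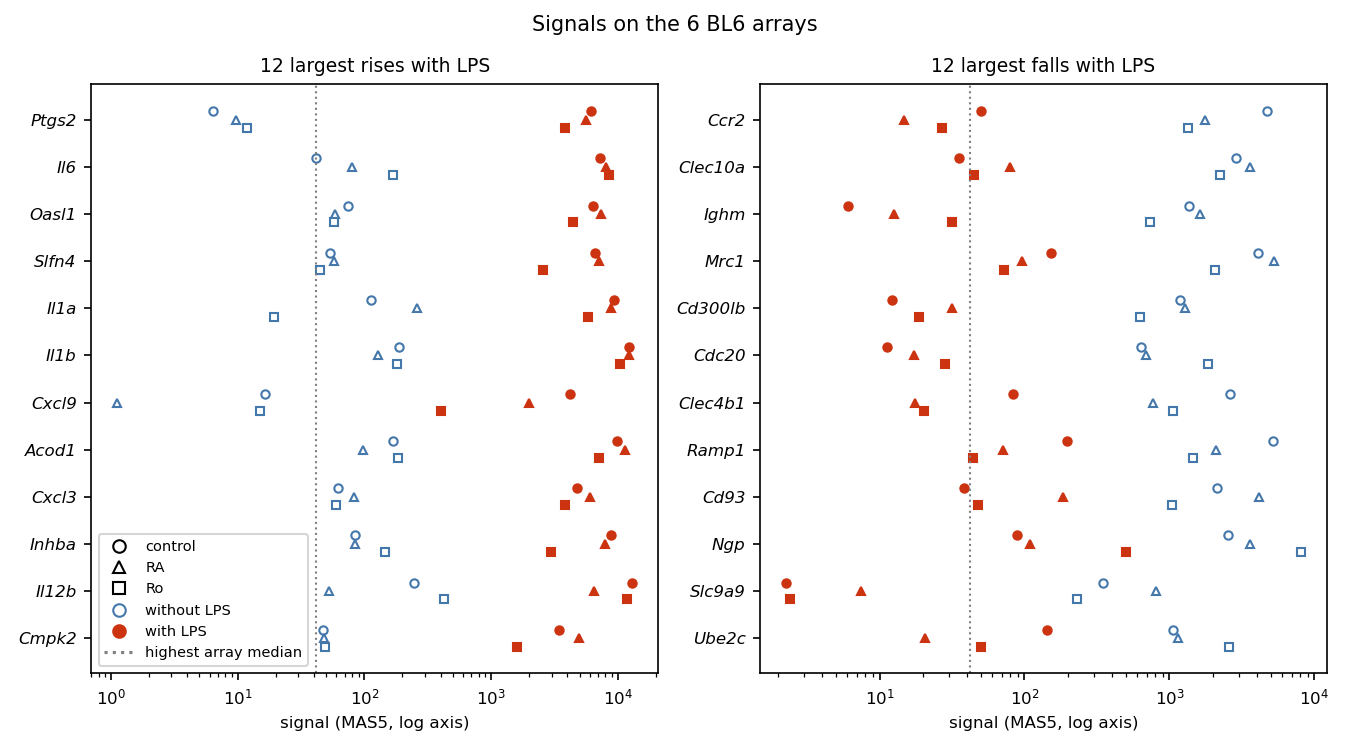
MAS5 signals (log axis) on the 6 BL6 arrays of the 12 genes with the largest rises (left) and the 12 with the largest falls (right), open symbols without LPS and filled symbols with LPS, with the retinoid condition as the shape and the highest array median (41.8) as the dotted line. For each of the 24 genes, picked for the size of this change, the open and filled symbols do not overlap. Ptgs2 moves from 6.41 to 11.8 up to 3863 to 6202.

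Among the genes that sense LPS and pass on its signal, 6 of 20 rose and 3 fell, beside 6.85% and 21.9% of all genes. After centring each array on its median, 8 rose and none fell (1906 and 1079 over all genes). Without the control pair the counts were 2 and 1 (483 and 1245 over all genes). Tlr4 itself was not past the threshold, at 288, 348 and 183 without LPS and 62.6, 307 and 122 with LPS and -0.57 ± 0.37 (adjusted p = 0.11). Cd14, the coreceptor that hands LPS to it, read 3998, 2315 and 1207 without LPS and 11126, 8835 and 5545 with LPS. It rose in all 3 conditions, by 2.18 ± 0.19 (adjusted p = 0.000567). Casp4, a caspase that detects LPS inside the cell, rose by 3.61 ± 0.25 (adjusted p = 0.000164). Ikbke, a kinase that activates IRF3, rose by 1.55 ± 0.30 (adjusted p = 0.0188), although its groups overlapped, and this call was lost without the control pair and without the Ro pair. Traf6, the ubiquitin ligase of the MyD88 arm, rose by 1.81 ± 0.38 (adjusted p = 0.0229), and this call too was lost without the control pair and with its second brightest probe set, at 0.38. The adaptor Myd88 changed by -0.24 and Ly96, which encodes MD-2, by 0.85. Neither passed the threshold.

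Of 23 genes of NF-kappaB subunits and their feedback inhibitors, 16 rose and none fell. The median change of the list was 1.56. Nfkbiz, a nuclear IkappaB protein needed for Il6 transcription, read 104, 82.7 and 156 without LPS and 1470.4, 1235 and 1488 with LPS. It rose alike in the 3 conditions, by 3.79 ± 0.26 (adjusted p = 0.000157). Tnfaip3 (A20), which removes ubiquitin chains to stop the signal, read 496, 232 and 778 without LPS and 3601, 4122 and 3954 with LPS, and rose by 3.38 ± 0.33 (adjusted p = 0.000688). Traf1, an adaptor of TNF receptors, and Cflar, an inhibitor of caspase 8, rose by 2.92 and 2.71. Among the subunits, Nfkb2 rose by 2.22, Rel by 2.13 and Relb by 1.18, while Rela read 1270.0, 1036 and 1582 without LPS and 996, 1316 and 1662 with LPS and was not past the threshold at 0.34.

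Of 23 inflammatory cytokine genes, 18 rose and 1 (Tgfb1, at -0.38) fell, with a list median of 2.71. Besides Il6, Il1a, Il1b, Inhba and Il12b, this held the other interleukin 12 subunit, Il12a, which read 9.55, 5.61 and 0.906 without LPS and 887, 1634 and 423 with LPS. Tnf, the gene of tumour necrosis factor, read 97.9, 103 and 505 without LPS and 837, 7256 and 1278 with LPS. Its RA culture with LPS stood far above the other arrays, and its Ro culture was already the highest of the arrays without LPS. Tnf rose by 3.70 ± 0.71 (adjusted p = 0.0101), with changes of 3.40, 6.16 and 1.53 in control, RA and Ro, and the call was lost without the control pair. Il10, the anti-inflammatory cytokine, was at background without LPS and read 45.5, 42.1 and 162 with it. It rose by 2.30 ± 0.39 (adjusted p = 0.00822), most in the Ro pair. Ifnb1, the gene of interferon beta, read 9.39, 1.23 and 5.14 without LPS and 155, 159.7 and 52 with LPS. It rose by 2.91 ± 0.36 (adjusted p = 0.00197) and stayed low on the Ro array. Csf2, the gene of GM-CSF itself, was at background in both groups.

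Of 26 chemokine genes 14 rose and 2 (Ppbp and Cxcl12) fell, while with either other scaling none fell. Cxcl10 and Cxcl9, ligands of the T cell receptor CXCR3, rose by 5.80 ± 0.30 (adjusted p = 3.95e-05) and 6.20 ± 0.59 (adjusted p = 0.000533). Cxcl9 read 16.5, 1.12 and 14.9 without LPS and 4225, 1995 and 401 with LPS, with the lowest LPS signal in Ro. Cxcl2, a ligand of the neutrophil receptor CXCR2, read 207, 275 and 183 without LPS and 10372, 10805 and 6927 with LPS. Cxcl3, which binds the same receptor, read 61.9, 82.8 and 59.9 without LPS and 4809, 6068 and 3844 with LPS. They rose by 5.61 ± 0.21 (adjusted p = 1.29e-05) and 6.17 ± 0.24 (adjusted p = 1.29e-05), with little spread among conditions. Cxcl1, another ligand of this receptor, read 6.39, 8.5 and 8.54 without LPS and 265, 197 and 192 with LPS. It rose by 3.60 ± 0.28 (adjusted p = 0.000307) but ended low. Ccl2, Ccl3, Ccl4 and Ccl7 rose by 3.32, 3.12, 3.04 and 3.16. Ccl5 at 0.69 and Ccl17 at 0.75 did not pass the threshold.

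A kappaB motif, GGG, any 2 bases, then TTTCC, was sought on either strand in a window around the start of the gene (RefSeq, build GRCm38.p6). The window ran from 250 bases before to 50 after the start. Of the genes past the threshold that hold it, the 3 with the largest rises (Il6, Cxcl3 and Cxcl2) and Cxcl1 are shown. The motif was present in 4 of 18 chemokine genes with a window, in 3 of 17 cytokine genes and in 6 of 18 NF-kappaB feedback genes. It was in 2.1% of the tested genes with a window, and in 1.6% of all 32851 windows. A gene was counted if any of its windows held a match. Ccl9 (change 0.50), Csf1 (1.06) and Cyld (0.11) also hold the motif but were not past the threshold and are not shown. Capitals mark the matches, and the excerpts stop before the start site. The Il6 excerpt is at chr5:30013030-30013113, plus strand, that of Cxcl3 at chr5:90785988-90786077, plus strand, that of Cxcl2 at chr5:90903762-90903870, plus strand and that of Cxcl1 at chr5:90891116-90891223, plus strand.
Il6: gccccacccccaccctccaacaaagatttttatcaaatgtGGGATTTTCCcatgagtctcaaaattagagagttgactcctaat
Cxcl3: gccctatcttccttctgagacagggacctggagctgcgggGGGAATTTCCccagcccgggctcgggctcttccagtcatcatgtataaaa
Cxcl2: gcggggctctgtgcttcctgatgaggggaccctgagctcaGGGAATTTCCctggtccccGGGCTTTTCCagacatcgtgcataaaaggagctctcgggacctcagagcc
Cxcl1: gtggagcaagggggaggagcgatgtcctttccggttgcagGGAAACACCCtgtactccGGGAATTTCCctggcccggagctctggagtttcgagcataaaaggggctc
The Cxcl1 and Cxcl2 windows each hold 2 matches and those of Il6 and Cxcl3 hold 1. A match is a string of letters in the reference and was not tested as a site.

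All 38 interferon stimulated genes tested rose, with a median change of 2.76, beside 6.85% of all genes. At least 35 of them passed the threshold whichever pair was left out. Median signals of the list were 304, 413 and 285 without LPS and 3429, 4777 and 2591 with LPS. Ifit1 and Ifit2, which bind viral RNA or translation factors, rose by 5.35 and 5.41, and Rsad2 (viperin) by 5.01. Isg20, an exonuclease, read 61.5, 76.2 and 241 without LPS and 6326, 7963 and 2636 with LPS, and rose by 5.70 ± 0.55 (adjusted p = 0.000562). The Ro pair had the lowest change in 25 of the 38 genes, and over all genes it was lowest in 37.1%. This share was not counted over the higher genes alone. Of 25 genes that signal for interferon, 11 rose (17 with arrays centred on their median, beside 1906 of all genes) and 1 fell. Irf7, the factor that amplifies interferon production, read 158, 205 and 146 without LPS and 8119, 7304 and 6969.8 with LPS. The groups lay far apart, and its change was 5.65 ± 0.22 (adjusted p = 1.39e-05). Socs3 and Socs1, inhibitors of JAK kinases, rose by 3.76 ± 0.39 (adjusted p = 0.000849) and 2.71 ± 0.46 (adjusted p = 0.00699), and Stat2 by 2.21 ± 0.25 (adjusted p = 0.00164). The 1 gene that fell was Ifngr1, the ligand-binding chain of the interferon gamma receptor, at -1.71.

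A motif of the interferon response element, GAAA, any 2 bases, then GAAA, was sought on either strand. It was found in 15 of the 29 interferon stimulated genes that have a window (51.7%). Of the tested genes with a window 3.7% held it, and of all windows 3.4%. Excerpts of the 3 with the largest rises among the 15 are shown, Ifit1 at chr19:34640745-34640853, plus strand, Rsad2 at chr12:26456523-26456612, minus strand and Ifit3 at chr19:34583333-34583456, plus strand.
Ifit1: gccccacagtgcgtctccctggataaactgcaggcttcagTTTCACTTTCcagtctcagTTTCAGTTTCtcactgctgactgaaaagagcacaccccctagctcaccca
Rsad2: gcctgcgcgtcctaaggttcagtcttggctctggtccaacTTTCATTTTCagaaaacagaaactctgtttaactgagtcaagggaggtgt
Ifit3: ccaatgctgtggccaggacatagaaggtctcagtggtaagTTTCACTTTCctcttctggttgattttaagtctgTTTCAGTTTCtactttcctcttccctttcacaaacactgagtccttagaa
In these 3 genes the matches lie on the strand opposite to the gene and so read TTTC at both ends. Oasl1, Slfn4, Cmpk2, Isg20 and Ifit2, all with larger rises than these 3, are not among the 15. A gene outside the 15 may have a window without a match or no window at all, and the 2 cases are not separated here.

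Of 28 maturation and costimulation genes, 19 rose and none fell. Cd40, through which T cells activate the dendritic cell, read 116, 65.5 and 551 without LPS and 8054, 3339 and 7330.2 with LPS. It rose by 5.31 ± 0.40 (adjusted p = 0.0002). Cd86 and Cd80, the ligands of CD28, rose by 3.56 and 2.15. Cd69 and Cd200 rose by 4.28 ± 0.49 (adjusted p = 0.00131) and 4.26 ± 0.24 (adjusted p = 5.37e-05), and Slamf1, a self-binding receptor, by 3.87 ± 0.46 (adjusted p = 0.00147). For Cd69, Cd40 and Slamf1, the Ro array was the highest of those without LPS. Ccr7, the receptor that leads mature dendritic cells to the lymph node, read 2647, 830.1 and 5347 without LPS and 5175, 2879 and 12282 with LPS. It rose within each condition, by 1.63 ± 0.20 (adjusted p = 0.00312), but the groups overlapped, with the Ro array without LPS above the control and RA arrays with LPS. The call was lost without the block. Of 17 class I genes, 10 rose and none fell, led by the peptide transporter Tap1 at 2.08 ± 0.24 (adjusted p = 0.00172), the activator of class I transcription Nlrc5 at 2.00 ± 0.31 (adjusted p = 0.0057), and the peptide editors Tapbpl at 1.90 ± 0.27 (adjusted p = 0.00442) and Tapbp at 1.51 ± 0.20 (adjusted p = 0.00384). The second brightest probe set of Tapbpl gave 0.34 and did not pass the threshold. Without the control pair 5 of the 17 rose, and without the RA pair 6 (483 and 598 over all genes). Of 14 class II genes none rose and 2 fell, beside 6.85% and 21.9% of all genes, so the share of falls was below that of all genes. The 2 were H2-DMa and H2-DMb2, subunits of the class II peptide exchanger, at -1.20 ± 0.17 (adjusted p = 0.000798) and -1.24 ± 0.36 (adjusted p = 0.0161). The H2-DMb2 call was lost with the arrays centred on their median and without the control pair.

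Of 23 genes of lipid mediators, nitric oxide and itaconate, 11 rose and 5 fell, beside 6.85% and 21.9% of all genes. Ptges, the prostaglandin E synthase that acts after Ptgs2, read 54.5, 83.4 and 35.7 without LPS and 1408, 3187 and 507 with LPS, and rose by 4.54 ± 0.35 (adjusted p = 0.00023). Nos2, the inducible nitric oxide synthase, read 3.13, 1.04 and 1.16 without LPS and 705, 413 and 189 with LPS. It rose from background in each condition, by 4.80 ± 0.36 (adjusted p = 0.000209), and its Ro array with LPS was the lowest of the 3. The 5 that fell were the leukotriene and lipoxin genes Alox5 (-2.73), Alox5ap (-1.10), Lta4h (-1.73) and Alox15 (-2.28), and the prostacyclin synthase Ptgis (-2.20). Arg1, the enzyme that competes for the same arginine, was not past the threshold.

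Glycolysis and hypoxia genes rose in 16 of 23 cases, and none fell. The control pair had the highest change in 20 of the 23, beside 36.1% of all genes and 57.2% of the 852 higher genes. The median change of the list was 2.12, 1.10 and 1.06 in control, RA and Ro. Vegfa, the vascular growth factor, read 85.9, 113 and 41.5 without LPS and 2253, 386 and 199.7 with LPS. It was highest in the control culture with LPS, and rose by 2.99 ± 0.52 (adjusted p = 0.00725). Ero1a, an oxidase of the endoplasmic reticulum, rose by 2.80 ± 0.42 (adjusted p = 0.00428), Egln3, an oxygen-sensing prolyl hydroxylase, by 2.74 ± 0.53 (adjusted p = 0.0118), and Adm, adrenomedullin, by 2.72 ± 0.72 (adjusted p = 0.0392). Adm read 18.1, 21.5 and 54.6 without LPS and 892, 192 and 55.4 with LPS, with the smallest difference in the Ro pair, and its call was lost without the control pair. The glucose transporter Slc2a1 and the hexokinases Hk2 and Hk3 rose by 2.55, 1.64 and 2.10. Without the control pair 7 of the 23 rose (483 over all genes). Of 30 oxidative phosphorylation genes, 12 fell and 1 (Cycs, cytochrome c) rose, beside 21.9% and 6.85% of all genes, with a list median of -0.13. The lowest were the complex I genes Ndufs1 at -1.02 ± 0.26 (adjusted p = 0.00736) and Ndufa4 at -0.95 ± 0.28 (adjusted p = 0.0133), the latter now placed in complex IV and lost without the control pair, and Sdhc of complex II at -0.84 ± 0.23 (adjusted p = 0.00881). With arrays centred on their median 1 of the 30 fell and 1 rose (1079 and 1906 over all genes). Without the control or the RA pair 3 and 5 fell (1245 and 1834 over all genes).

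Among 27 heat shock and stress genes, 11 rose and 2 fell, beside 6.85% and 21.9% of all genes. After centring each array on its median, 16 rose and none fell (1906 and 1079 over all genes). Without the control pair 7 rose and none fell (483 and 1245 over all genes). Hspa1a and Hspa1b are near-identical genes of the inducible HSP70 whose probe sets may read each other's transcripts. Hspa1a read 53.1, 25 and 17.3 without LPS and 6057, 1627 and 198 with LPS. Hspa1b read 45.6, 28 and 34.2 without LPS and 5449, 2510.5 and 216 with LPS. LPS signals of both genes were highest in control and lowest in Ro, and the changes were 5.14 ± 0.61 (adjusted p = 0.00136) and 5.15 ± 0.70 (adjusted p = 0.00231). Slc7a11, the cystine transporter, rose by 3.35 ± 0.43 (adjusted p = 0.00216), and its second brightest probe set, at 1.54, did not pass the threshold. Ddit3 (CHOP) rose by 2.60 ± 0.23 (adjusted p = 0.000539), but its second brightest probe set gave -0.23. The Ro pair had the lowest change in 21 of the 27 genes (over all genes, 37.1%, and not counted over the higher genes alone). A heat shock element motif was in the promoter windows of 3 of the 25 genes that have one, and in 0.6% of all windows. The 3 genes, Hspd1, Hspe1 and Hsph1, were not past the threshold.

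Of 33 immediate early factors and phosphatases, 13 rose and 8 fell, beside 6.85% and 21.9% of all genes, so that the share of falls was near that of all genes. Atf3, a stress-induced factor that restrains TLR genes, read 1342, 877 and 697 without LPS and 7409.8, 4981 and 4093 with LPS, and rose by 2.80 ± 0.19 (adjusted p = 0.000157). Dusp1, a phosphatase of p38 and JNK, rose by 2.61 ± 0.22 (adjusted p = 0.000428), Nr4a2, an orphan nuclear receptor, by 2.53 ± 0.30 (adjusted p = 0.00182), and Maff, a small Maf factor, by 2.51 ± 0.40 (adjusted p = 0.00569). The genes that fell included Myc at -2.50, Egr1 at -2.44, Egr2 at -2.10 and Klf2 at -2.16. Egr1 read 314, 725 and 488 without LPS and 15.5, 208 and 40.6 with LPS. Fos at -0.80 and Jun at 0.43 did not pass the threshold.

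Of 32 pattern recognition and endocytic receptor genes, 7 rose and 7 fell, beside 6.85% and 21.9% of all genes, so that the share of falls was that of all genes. Clec4e (Mincle), which binds mycobacterial glycolipid, read 717, 335 and 663 without LPS and 11838, 11986 and 5065 with LPS, and rose by 4.32 ± 0.36 (adjusted p = 0.000382). Marco, a scavenger receptor, read 193, 237 and 83 without LPS and 4073, 2534 and 252 with LPS. It rose by 3.33 ± 0.48 (adjusted p = 0.0033), least in the Ro pair. Tlr3, the sensor of double-stranded RNA, rose by 1.63 ± 0.36 (adjusted p = 0.03) with overlapping groups, a call lost without the RA pair. The falls were in Clec10a, Mrc1 and Clec4b1, given above, in Clec4a2 at -3.95, and in Cd209a, a DC-SIGN gene, at -3.84 ± 0.53 (adjusted p = 0.00143). Cd209a read 389, 257 and 3379 without LPS and 19.9, 19 and 36.8 with LPS, with the Ro array without LPS far above its partners. Among 19 genes of chemokine receptors and adhesion, 4 rose and 8 fell, beside 6.85% and 21.9% of all genes. Ccrl2, a receptor that presents chemerin, rose by 4.82 ± 0.33 (adjusted p = 0.000153), and Fpr2, a formyl peptide receptor, by 2.95 ± 0.27 (adjusted p = 0.000562). Itgae (CD103) and Itgb7, the 2 chains of 1 integrin, changed by -3.06 ± 0.34 (adjusted p = 0.000541) and -2.83 ± 0.28 (adjusted p = 0.000324), and Itgax by -0.91. With arrays centred on their median 3 of the 19 fell, and without the control pair 4 fell (1079 and 1245 over all genes).

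Of 24 lysosomal genes 1 rose, 7 fell and 16 did not pass the threshold, shares near those of all genes (6.85% and 21.9%). After centring each array on its median, 5 rose and 5 fell (1906 and 1079 over all genes). Naaa, an amidase used as a marker of conventional dendritic cells, read 5873, 4964 and 4442 without LPS and 380.0, 416 and 608 with LPS. It fell about equally in each condition, by -3.11 ± 0.25 (adjusted p = 0.000153). Gusb and Man2b1, which split sugars, changed by -2.41 ± 0.46 (adjusted p = 0.00426) and -1.96 ± 0.23 (adjusted p = 0.000584). Gla, alpha-galactosidase, rose by 1.48 ± 0.31 (adjusted p = 0.0263) but not without the control pair. In the list of complement, coagulation and matrix genes, 4 of 26 rose and 12 fell, beside 6.85% and 21.9% of all genes. With arrays centred on their median 8 rose and 6 fell (1906 and 1079 over all genes). Without the control pair 4 rose and 5 fell (483 and 1245 over all genes). Cfb, factor B of the alternative complement pathway, read 378, 85 and 60.2 without LPS and 6438, 8829.5 and 1601 with LPS, and rose by 5.28 ± 0.43 (adjusted p = 0.000319). Timp1, an inhibitor of matrix proteases, rose by 4.18 ± 0.35 (adjusted p = 0.000365). Pros1, protein S, changed by -2.89 ± 0.40 (adjusted p = 0.00125). Fn1, fibronectin, read 10698, 4519 and 173 without LPS and 305, 259.6 and 94.7 with LPS. The Ro array without LPS was near the LPS arrays, so the groups overlapped, and its change of -2.98 ± 0.68 (adjusted p = 0.00952) did not pass without the control pair.

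Most of the listed cell division genes fell. Of 32 mitosis genes, 30 fell and none rose, with a median change of -2.28, beside 21.9% of all genes. Of 30 DNA replication genes, 24 fell and none rose, with a median of -1.39. The securin gene Pttg1 and the DNA polymerase subunit gene Pola2, given below, are outside these lists. Pttg1 rose, at 1.30, and Pola2 was not past the threshold at 0.74. Ccnb2, cyclin B2, read 614, 649.7 and 1492 without LPS and 42.4, 16.6 and 24.3 with LPS. All 3 LPS arrays were near background, whatever the starting level, and the change was -4.02 ± 0.37 (adjusted p = 0.000262). Birc5 (survivin) read 819, 1019 and 2027 without LPS and 86.1, 29.4 and 62.1 with LPS, and changed by -3.77 ± 0.36 (adjusted p = 0.000353). Cdc20 read 633, 689 and 1834 without LPS and 11.3, 17.3 and 28.5 with LPS. Ube2c read 1061, 1144 and 2594 without LPS and 144, 20.5 and 49.7 with LPS. Their changes were -4.47 ± 0.30 (adjusted p = 6.52e-05) and -4.04 ± 0.47 (adjusted p = 0.000725). Rrm2 and Rrm1, the subunits of ribonucleotide reductase, changed by -3.79 ± 0.33 (adjusted p = 0.000201) and -2.29 ± 0.29 (adjusted p = 0.0008), the thymidine kinase Tk1 by -3.60 ± 0.35 (adjusted p = 0.000353) and the helicase subunit Mcm5 by -2.27 ± 0.35 (adjusted p = 0.00167). Median mitosis signals were 195, 225 and 515 without LPS and 32.9, 19.4 and 35.8 with LPS. The Ro array without LPS was thus the highest, and the 3 LPS arrays lay between 19.4 and 35.8. The Ro pair had the lowest change in 31 of 32 mitosis genes, beside 37.1% of all genes and 36.0% of the lower genes. Granulocyte markers fell too, as given below, and the part of cell composition in the fall was not tested. In bulk samples fewer cells of a type and less RNA per cell cannot be told apart.

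The letters TTTGAA, the CHR motif found in promoters of G2 and M phase genes, were in the windows of 20 of 26 mitosis genes (76.9%). They were in 14.6% of the tested genes with a window and in 17.9% of all windows, on either strand. CCAAT was in 19 of 26, beside 42.5% of the tested genes with a window and 37.4% of all windows. The excerpts belong to the 3 mitosis genes with the largest falls that hold TTTGAA, with Cdc20 at chr4:118437344-118437401, minus strand, Ube2c at chr2:164769860-164769928, plus strand and Ccnb2 at chr9:70421676-70421761, minus strand.
Cdc20: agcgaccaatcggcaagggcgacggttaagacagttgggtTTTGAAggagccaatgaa
Ube2c: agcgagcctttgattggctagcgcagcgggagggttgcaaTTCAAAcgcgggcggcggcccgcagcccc
Ccnb2: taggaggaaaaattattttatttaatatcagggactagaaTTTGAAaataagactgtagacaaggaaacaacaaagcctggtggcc
Capitals mark the match before the start site, which in Ube2c is on the opposite strand and reads TTCAAA. The Ccnb2 window holds 2 matches, and the one after the start site is not shown. A TTTNNCGC motif of E2F type was in 11 of 25 DNA replication genes, in 9.5% of the tested genes with a window and in 5.2% of all windows. Rfc3 and Tyms, among the 11, were not past the threshold, nor was Mki67 among the 20 with TTTGAA.

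Of 20 cholesterol synthesis genes, 15 fell and none rose, with a median change of -1.02. After centring each array on its median, 10 fell (1079 over all genes). Dhcr7, which makes cholesterol from its last precursor, read 260.4, 379 and 213 without LPS and 30.2, 74.7 and 35.2 with LPS. It fell in each condition, by -1.97 ± 0.28 (adjusted p = 0.0011). Cyp51 and Sqle, a demethylase and an epoxidase of the pathway, and Stard4, a sterol carrier, changed by -1.65 ± 0.32 (adjusted p = 0.00356), -1.53 ± 0.32 (adjusted p = 0.00505) and -1.53 ± 0.27 (adjusted p = 0.00237). The sterol motif TCACNCCAC was in 1 of 16 genes with a window, beside 1.4% of the tested genes with a window and 1.2% of all windows.

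Markers of cell types moved with LPS as well, while over all genes 6.85% rose and 21.9% fell. Of 18 granulocyte markers 13 fell and 2 rose, and their summed signals were 24757, 37721 and 42214 without LPS and 13112, 16957 and 12758 with LPS. S100a9 read 4333, 7314 and 10738 without LPS and 196, 319.6 and 582 with LPS, and changed by -4.01 ± 0.20 (adjusted p = 2.53e-05). S100a8, its partner in calprotectin, changed by -3.31 ± 0.20 (adjusted p = 4.38e-05). The markers that rose were Lcn2 at 2.59 and the acute phase gene Orm1, at 4.91 ± 0.55 (adjusted p = 0.00105). Of 21 macrophage and monocyte markers 10 fell and 3 rose, and their summed signals were 97626, 132120.0 and 81828 without LPS and 89186, 113444 and 42413 with LPS. Trem2 changed by -2.59 ± 0.28 (adjusted p = 0.000467), while Adgre1 (F4/80) was not past the threshold at 0.78. Of 18 conventional dendritic cell markers 8 fell and 2 rose, with summed signals of 17828, 12937 and 23478 without LPS and 9354, 6622 and 21792 with LPS. Zbtb46 changed by -0.058 and was not past the threshold. Of 17 mast cell, basophil and eosinophil markers on the array, 7 did not pass the filter, and no BL6 signal of those 7 was above 76.0. Of the 10 tested 6 fell, with summed signals of 5258, 6506 and 4505 without LPS and 3207, 1855 and 922 with LPS. All 3 LPS signals lay below the 3 without LPS for 1 of the 10, beside 28.4% of all genes. Siglecf, an eosinophil lectin, changed by -2.79 ± 0.30 (adjusted p = 0.000497), Prg2, the eosinophil major basic protein, by -1.83 ± 0.39 (adjusted p = 0.00564), Cpa3, a mast cell protease, by -1.73 ± 0.27 (adjusted p = 0.0016), and the basophil protease Mcpt8 by -1.24 ± 0.40 (adjusted p = 0.0232). Prg2, Cpa3 and Mcpt8 were highest in the Ro array without LPS, and their calls were lost without the block. Of 18 B cell, T cell and NK cell markers on the array, 12 did not pass the filter, Cd79a, Cd3e, Cd3d and Cd4 among them, and no BL6 signal of those 12 was above 93.0. Of the 6 tested, Ighm and Jchain fell, with Ighm at 1365, 1634 and 739 without LPS and 6.09, 12.5 and 31.4 with LPS. The summed signals of the 6 were 1590.0, 1910.2 and 1089 without LPS and 197, 177 and 211 with LPS. With arrays centred on their median the falls numbered 9 for granulocyte, 4 for macrophage, 4 for dendritic cell and 3 for mast cell, basophil and eosinophil markers. Without the control pair they numbered 11, 5, 5 and 4. Over all genes 1079 fell with centring and 1245 without the control pair. The part of these cell types in the other changes was not tested.

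The 3 retinoid conditions gave related but unequal responses. Each condition had 1 array with LPS and 1 without, so differences among the 3 changes had no test. The changes of the control pair, across genes that do not count as replicates of each other, had a Pearson correlation of 0.77 with those of the RA pair and 0.67 with those of the Ro pair, and RA and Ro had 0.71. Among the 852 higher genes the change was highest in the control pair for 57.2%, in RA for 28.1% and in Ro for 14.8%, beside 36.1%, 32.1% and 31.7% of all genes. Among the 2720 lower genes it was lowest in control for 40.9%, in RA for 23.1% and in Ro for 36.0%, beside 34.8%, 28.1% and 37.1% of all genes.

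**Figure D2:**
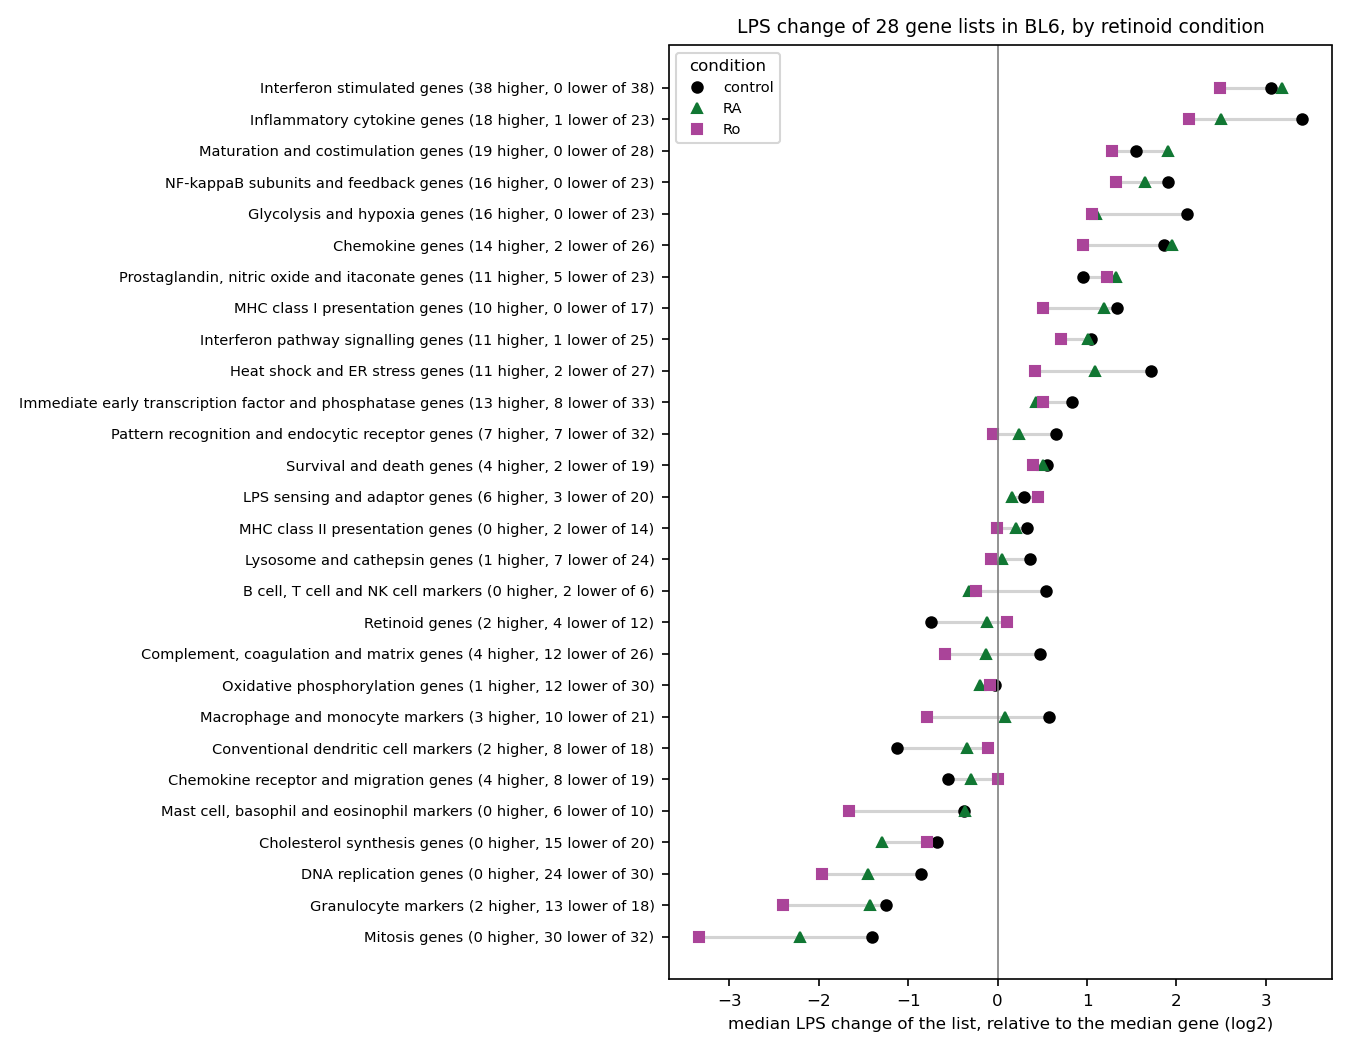
Median LPS change of each of the 28 gene lists (log2, relative to the median gene) in the control, RA and Ro pairs of BL6 arrays, with the number of members past the threshold in each direction in the label. Interferon stimulated genes lie between 2.49 and 3.18, mitosis genes between -1.41 in control and -3.34 in Ro, and heat shock genes between 1.71 in control and 0.42 in Ro.

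The widest spread was that of Hcar2, Rtel1, Ptx3, Asgr2 and Arg1. Hcar2, a receptor for niacin and ketone bodies, read 109, 286 and 1028 without LPS and 3491, 1410.2 and 340.2 with LPS. It was higher with LPS in control and RA and lower in Ro, with changes of 5.31, 2.47 and -1.33. Arg1 read 124, 4713 and 3.93 without LPS and 3489, 4088 and 40.1 with LPS, so the RA array without LPS was above the control array with LPS, and its changes were 5.14, 0.024 and 1.71. Asgr2, a galactose-binding lectin, read 364, 92.2 and 5941 without LPS and 31.8, 13.7 and 23 with LPS. The Ro array without LPS was the highest, and the changes were -2.49, -1.63 and -7.03. Ptx3, a long pentraxin, read 82.2, 57 and 249 without LPS and 1146, 3911 and 285 with LPS, with changes of 4.06, 5.98 and 0.40. Rtel1, a DNA helicase, was above background on 2 arrays, RA without LPS and control with LPS.

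**Figure D3:**
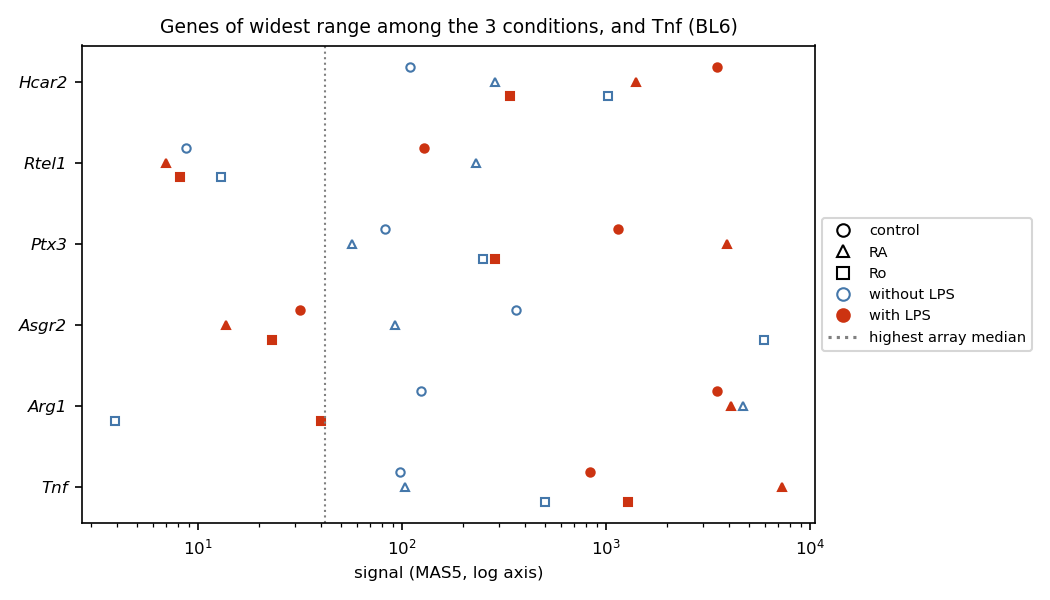
MAS5 signals (log axis) on the 6 BL6 arrays of the 5 genes with the widest range of LPS change among the retinoid conditions, and of Tnf, with open symbols without LPS, filled symbols with LPS and the condition as the shape. Arg1 stands at 4713 in RA without LPS, next to 3489 and 4088 in control and RA with LPS, while its Ro arrays are at 3.93 and 40.1.

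The same contrast in BALB/c had a Pearson correlation of 0.88 and a Spearman correlation of 0.85 with that of BL6 over the 12429 genes. The 2 contrasts share no array, but all BALB/c arrays are replicate 1 and all BL6 arrays replicate 2, so strain and any batch shared by arrays of 1 replicate number cannot be told apart. In a fit of all 12 arrays with a strain by LPS term, the change differed at an adjusted p under 0.05 for 14 genes. For 13 of them (0.105% of those tested) the BL6 change was above the BALB/c change, and for 1 (0.00805%) below it, while 1401 genes had an unadjusted p under 0.05. In limma no gene passed when any 1 of the 4 RA arrays was left out, and 813 to 1115 genes then had an unadjusted p under 0.05. The count was 5 without the BALB/c control array, 3 without BALB/c Ro with LPS, 3 without the BL6 control, and 7 without BL6 control with LPS or BL6 Ro with LPS. It was 23 without BALB/c control with LPS and 34 without BL6 Ro. With all arrays it was 2 with strain by retinoid terms and 1 without retinoid terms. Differences are given as BL6 minus BALB/c, relative to the median gene.

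The gene with the lower change in BL6 was Cxcl1, whose promoter is shown above. BALB/c signals were 75.1, 46.5 and 21.9 without LPS and 7288, 6239.8 and 3503 with LPS. Each BL6 array with LPS was thus far below its BALB/c partner, and the difference was -3.47 ± 0.37 (adjusted p = 0.0151). Cxcl2 and Cxcl3, which bind the same receptor, changed by 5.61 and 6.17 in BL6 and by 4.73 and 4.14 in BALB/c, without a difference past the threshold.

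Among the 13 genes with the higher change in BL6, 3 belong to the interferon-inducible Ifi200 family of related genes, whose probe sets may read more than 1 member. Ifi213 read 29.9, 66.5 and 21.1 without LPS and 1620.1, 1341 and 414 with LPS in BL6 and 13, 9.98 and 1.98 without LPS and 36.6, 39.9 and 8.82 with LPS in BALB/c. It stayed at or below background on all 6 BALB/c arrays, and the difference was 3.19 ± 0.43 (adjusted p = 0.018). Mndal read 2678, 2459.8 and 1955 without LPS and 9618, 9116 and 6439.9 with LPS in BL6 and 4108, 4275 and 5726 without LPS and 4523, 3579 and 2577 with LPS in BALB/c. It rose in BL6 and had a change of 0.11 in BALB/c, a difference of 1.98 ± 0.30 (adjusted p = 0.0291). Ifi203, the other member, had a difference of 1.85 ± 0.31 (adjusted p = 0.0464). Oasl1 and Irf7 were lower in BL6 than in BALB/c on the arrays without LPS. Oasl1 read 361, 423 and 247 without LPS and 7264, 5741 and 5126 with LPS in BALB/c, a difference of 1.89 ± 0.27 (adjusted p = 0.018). Irf7 read 937, 845 and 462 without LPS and 10708, 7628 and 6601 with LPS in BALB/c, a difference of 1.61 ± 0.29 (adjusted p = 0.0489). The Irf7 call was lost with arrays centred on their median.

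Pttg1, securin, the inhibitor of the protease that separates sister chromatids, changed in opposite directions in the 2 strains. It read 3083, 3198 and 4128 without LPS and 7198, 6132 and 7260.4 with LPS in BL6 and 3368, 3935 and 4675 without LPS and 1739, 939 and 1144 with LPS in BALB/c. All BL6 arrays with LPS were above those without, and all BALB/c arrays with LPS below those without, a difference of 2.41 ± 0.29 (adjusted p = 0.0136). Ifi203 and Pola2, a subunit of DNA polymerase alpha, also had changes above 0 in BL6, at 1.13 and 0.74, and below 0 in BALB/c, at -0.76 and -0.65, but neither BL6 change passed the threshold. Ifi203 read 135, 102 and 110.4 without LPS and 259, 238 and 157 with LPS in BL6 and 123, 111 and 131 without LPS and 48, 47.7 and 28.2 with LPS in BALB/c, with no overlap in either strain. Itgb7 changed less in BL6, with 1555, 1800.2 and 2247 without LPS and 7.91, 9.8 and 25.7 with LPS in BALB/c and a difference of 2.59 ± 0.31 (adjusted p = 0.0136). Ctse, cathepsin E, and Treml2, a receptor of the TREM family, were higher in BALB/c than in BL6 without LPS. Ctse read 130.5, 77.2 and 69.2 without LPS and 27, 39.2 and 47.3 with LPS in BL6 and 3387, 3099 and 1929 without LPS and 218, 288 and 139.9 with LPS in BALB/c, a difference of 2.39 ± 0.41 (adjusted p = 0.0489). Treml2 read 265, 432 and 219 without LPS and 151, 363 and 124 with LPS in BL6 and 973, 1075 and 647 without LPS and 113, 86.3 and 44.7 with LPS in BALB/c, a difference of 2.44 ± 0.37 (adjusted p = 0.0302). Msh5, a meiotic mismatch repair gene, was at background on all BL6 arrays, and its difference was 3.01 ± 0.48 (adjusted p = 0.0464). The remaining genes were Ap1s3 and Il1rn. The calls of Ctse, Mndal and Msh5 were among those lost with quantile normalization, which left 7 genes past the threshold. With arrays centred on their median 5 genes were left, namely Cxcl1, Itgb7, Oasl1, Pttg1 and Treml2. All other calls, that of Ifi213 included, were lost with this centring. Of 20 alternatives, 18 ended the call of Ctse, 15 that of Msh5, 13 that of Mndal, 12 that of Treml2, 11 that of Ifi213, 9 that of Oasl1, 6 that of Cxcl1 and 5 those of Itgb7 and Pttg1, and none reversed the difference.

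**Figure D4:**
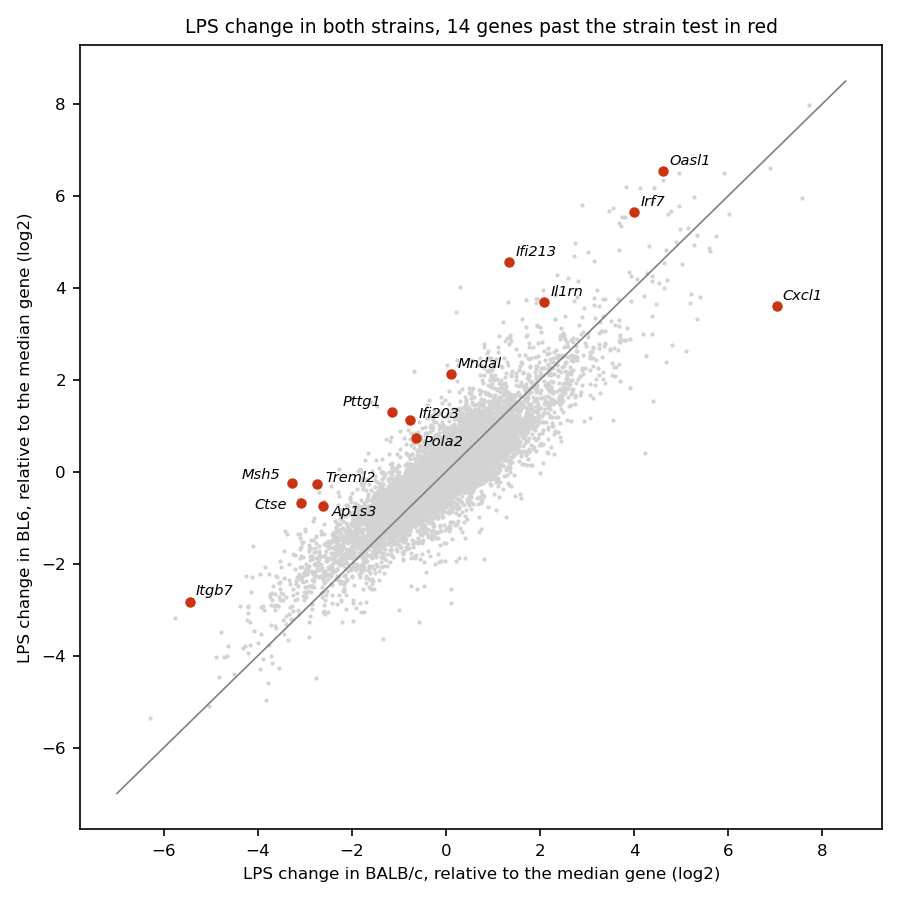
LPS change of each of the 12429 genes (log2, relative to the median gene) in BALB/c (horizontal) and BL6 (vertical), with the line of equal change and the 14 genes past the strain by LPS test in red. Cxcl1 is the red gene below the line, at 7.03 in BALB/c and 3.60 in BL6, and Pttg1 lies at -1.14 in BALB/c and 1.30 in BL6.

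Interferon stimulated genes as a list were lower in BL6 before LPS. Without LPS the BL6 mean was below the BALB/c mean for 37 of 38 (97.4%), beside 73.7% of all genes, and the 3 BL6 signals lay below all 3 BALB/c signals for 20 (24.5% of all genes). With LPS the BL6 mean was above for 36 of 38, beside 48.9% of all genes, with all 3 signals above for 9 (7.22% of all genes). The LPS change was larger in BL6 for 37 of 38 genes with each of the 3 scalings, with a median difference of 1.24, and 1 of them (Oasl1) passed the test. Mitosis genes without LPS had a BL6 mean below the BALB/c mean in 32 of 32 cases, beside 73.7% of all genes. The 3 BL6 signals lay below all 3 BALB/c signals for 5 of the 32 (15.6%), which is under the 24.5% of all genes. The BL6 change of the mitosis genes was above the BALB/c change, that is a smaller fall, for 30 of 32 (29 with quantile normalization). The median difference was 0.63, and none passed the test. The median difference was 0.30 without the BL6 control array with LPS, 0.41 without the BL6 control array, 1.02 without BL6 Ro with LPS and 1.04 without BL6 Ro. Median mitosis signals in BALB/c were 463, 564 and 687 without LPS and 29.1, 41.8 and 25.5 with LPS. With LPS the medians of both strains were near or below background, so the level without LPS limits the size of a fall. Other lists were as one-sided. The BL6 change was below the BALB/c change for 19 of 20 cholesterol synthesis genes and for 24 of 24 lysosomal genes (16 with quantile normalization).

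**Figure D5:**
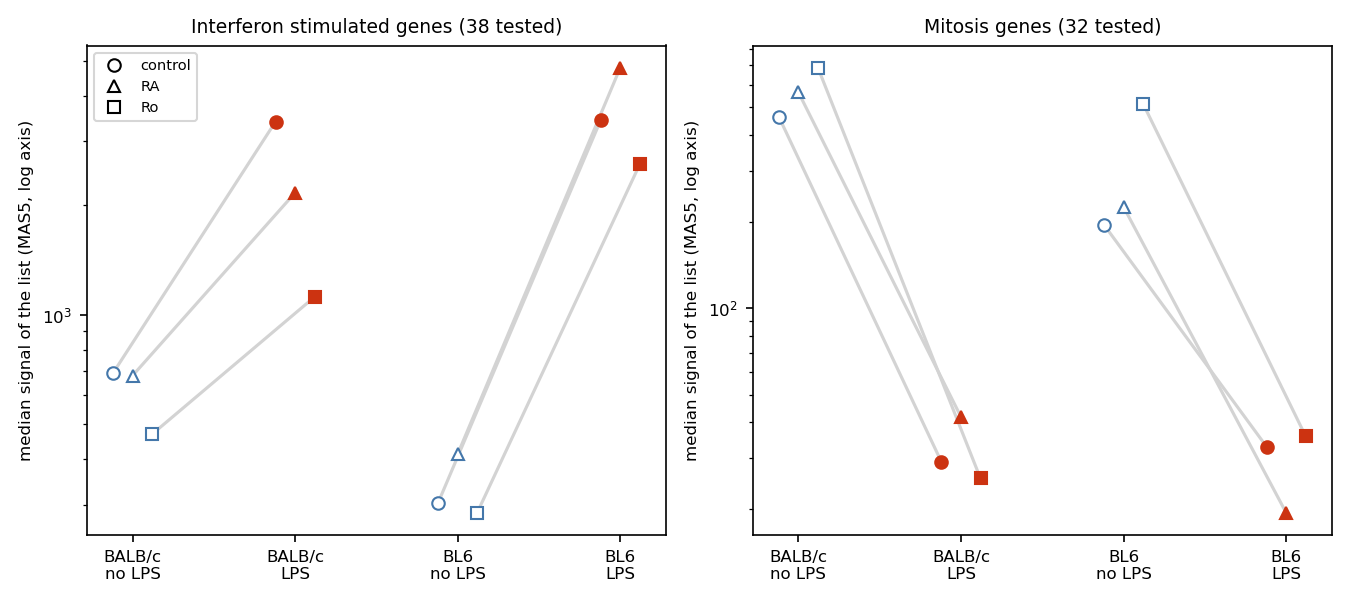
Median MAS5 signal (log axis) of 38 interferon stimulated genes (left) and 32 mitosis genes (right) on each of the 12 arrays, with lines joining the arrays without and with LPS of 1 retinoid condition. Interferon stimulated genes start lower in BL6 than in BALB/c in each condition, and mitosis genes end between 19.4 and 41.8 in both strains.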

How the data were processed

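Probe signals of 12 Affymetrix mouse arrays were analysed, each an intensity on a linear scale that the authors deposited after MAS5, per the submitters' processing notes, whose version is not given in the sources used here. RNA was total RNA labelled as biotin cRNA, per the labels' protocols. The number of arrays limits the precision. Probe sets were named through the platform annotation (34945 name 1 gene, 932 name several and were not used), kept if above their own array's median on at least 2 of 12 arrays, and reduced to the brightest per gene. For the 6 BL6 arrays a linear model (limma 3.58.1, R 4.3.3, eBayes with trend) was fitted to log2(signal + 16), with the retinoid condition as a block, which leaves 2 residual degrees of freedom beside a prior of 6.25. Within BL6 the deviations of partners with the same retinoid condition correlated at 0.18, 0.44 and 0.49, so the pairs deviated together. All 12 arrays were fitted with retinoid, strain, LPS and strain by LPS terms. Benjamini-Hochberg adjustment ran over all 12429 genes, at 0.05. The fit was tested on simulated data. Promoter windows came from RefSeq (GRCm38.p6).

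Genes were named by rule: the 12 largest rises and falls, up to 4 members past the threshold with the largest change from each of 28 lists (up to 2 by smallest p where none passed), 13 genes given in any case (Tnf, Il6, Il10, Il12b, Ifnb1, Ptgs2, Nos2, Tlr4, Cd14, Ccr2, Ccr7, H2-Ea and Nnt), up to 8 strain differences in each direction, and the 5 widest ranges among conditions. Other genes in the text were chosen after their values were seen. The comparison and the lists were chosen with earlier results of these data known. Alternatives were other scalings, pseudocounts, filters, probe sets, blocks and left-out arrays. Nnt, a mitochondrial transhydrogenase, read 395, 550.4 and 409 without LPS and 62.4, 139 and 118 with LPS in BL6, a change of -1.66 ± 0.28 (adjusted p = 0.00206).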

Additional observations from a re-analysis of the deposited data

Results flagged for a closer look

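The strain by LPS term was past the threshold for 10 of the genes named in the report, and these differences between the strains call for a closer look. Given as BL6 minus BALB/c on the log2 scale, relative to the median gene, the difference was 3.19 for Ifi213, 3.01 for Msh5, 2.59 for Itgb7, 2.44 for Treml2, 2.41 for Pttg1, 2.39 for Ctse, 1.98 for Mndal, 1.89 for Oasl1 and 1.61 for Irf7. For Cxcl1 it was -3.47. Each strain had 3 arrays with and 3 without LPS, and strain and a batch shared by 1 replicate number cannot be told apart.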

How the results depend on the processing

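The count of genes changed by LPS in BL6 (3572 of 12429) stayed within 1.5 times with other scalings, pseudocounts and filters (2724 to 3590). The 2724 came from the fit with no filter, over all 18193 genes with a probe set, so their share was lower. With all probe sets, 4411 probe sets passed, which is not a count of genes. The genes were less stable than their number, since 2360 of the 3572 passed with quantile normalization and 1931 with median centring. The gene count was 1591 without the retinoid block. Leaving out 1 pair of arrays gave 1728 (control) to 2980 (Ro), and without the block leaving out 1 array gave 684 without control, 673 without RA, 982 without Ro, 673 without control with LPS, 905 without RA with LPS and 2570 without Ro with LPS. With strain as the replicate block in a fit of all 12 arrays it was 4272, of which 3458 were among the 3572. For the strain by LPS count (14), 7 genes passed with quantile normalization, 5 with median centring, 4 with a pseudocount of 1 and 7 with no filter. It was 2 with strain by retinoid terms, and 1 with the replicate block but no retinoid terms. With all probe sets, 23 probe sets passed. Leaving out 1 array gave 0 to 34. Strain differences between the same conditions correlated at 0.30 to 0.70 over 15 pairs of conditions.

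Of the 129 named genes, 106 kept their direction and side of the threshold without the retinoid block and 113 without the control pair. Bcl2l11, Cycs and Rxra lost their calls with quantile normalization, and Bcl2l11, H2-DMb2, Mcpt8, Ndufa4 and Sdhc with median centring. Calls of Casp1, Cycs and Rxra were lost without the control pair and without the RA pair, that of Mcpt8 without the control and without the Ro pair, and those of Asgr2, Jchain and Ptx3 without the control pair. Reversed values, on the relative log2 scale, were those of genes near or at background or not past the threshold, and of second probe sets. H2-Ea changed from -0.29 to between -0.79 and 0.51 when 1 pair was left out and, without the block, to 0.54 without the Ro array. Msh5 changed from -0.24 to 0.022 with a pseudocount of 64, 0.16 with the filter on 6 arrays, between -0.61 and 0.16 with 1 pair left out, and 0.16 without the block and the Ro array with LPS. Rtel1 changed from -0.066 to between -1.61 and 1.51 with 1 pair left out and, without the block, to 1.07, 0.37 and 0.49 without the RA, RA with LPS and Ro with LPS arrays. Treml2 changed from -0.27, without the block, to 0.071 and 0.16 without the RA and the Ro with LPS arrays. The second brightest probe set gave -0.23 for Ddit3, 0.057 for H2-Ea and 0.13 for Rxra. Among the 65 named genes with a second probe set it also ended 13 calls with the direction kept, those of Adm, Bcl2l11, Cycs, Egln3, Fn1, Gla, H2-DMb2, Ptx3, Ramp1, Slc7a11, Tapbpl, Tlr3 and Traf6. The cause of these shifts was not tested. Signal over background limits genes whose arrays lie at or below 41.8: 143 higher genes were there without LPS and 600 lower genes with it.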

Other observations

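Among 19 survival and death genes, 4 rose and 2 fell, beside 6.85% and 21.9% of all genes, so the share of falls was below that of all genes. After centring each array on its median, 8 rose and none fell (1906 and 1079 over all genes). Gadd45b, a stress sensor of MAP kinase pathways, read 1252, 531 and 2898 without LPS and 9875, 5225 and 7889 with LPS, and rose by 2.87 ± 0.33 (adjusted p = 0.00144). Mlkl, which executes necroptosis, rose by 2.80 ± 0.25 (adjusted p = 0.000549), and Casp1, which matures interleukin 1 beta, by 1.56 ± 0.26 (adjusted p = 0.01). Bcl2l11 (Bim), which promotes apoptosis, read 3912, 2571 and 3914 without LPS and 154, 371 and 4877 with LPS. It was lower with LPS in control and RA and not in Ro, with changes of -4.04, -2.51 and 0.54, and the call was lost with each of the other scalings and without the control pair.

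Of 12 retinoid genes, 2 rose and 4 fell, beside 6.85% and 21.9% of all genes. With arrays centred on their median 3 rose and 2 fell (1906 and 1079 over all genes). Without the control pair 2 rose and 1 fell (483 and 1245 over all genes). Tgm2, a transglutaminase that retinoic acid induces, read 1831, 3278 and 2280.0 without LPS and 8771, 8373 and 6389.7 with LPS, and rose by 2.01 ± 0.21 (adjusted p = 0.00132). Cyp26b1, which degrades retinoic acid, read 19, 81.3 and 37.6 without LPS and 57.6, 235 and 118 with LPS. It was highest in the RA arrays of both groups and rose by 1.57 ± 0.27 (adjusted p = 0.0119), a call lost without the RA pair. Dhrs3, a retinal reductase, read 1576, 1907 and 215 without LPS and 217, 548 and 72.6 with LPS. It was lowest in the Ro arrays of both groups, and changed by -1.66 ± 0.32 (adjusted p = 0.00353). Rxra, a partner of retinoic acid receptors, changed by -1.08 ± 0.30 (adjusted p = 0.0116), but its second brightest probe set gave 0.13.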
